A study of Rattus norvegicus with 4 samples.

Results

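The Rab genes encode the largest branch of the Ras superfamily of small GTPases, and their transcripts were followed in cultured rat Sertoli cells with and without cAMP. Members were the probe sets whose only gene symbol on the array platform was Rab, a number and at most 1 further letter, and where a gene had more than 1, the probe set brightest on average across the 4 arrays stood for it. This gave 56 Rab genes from 97 probe sets, out of 14217 genes named on the array. The naming rule and the pick of probe sets used no comparison between the groups. The Rab genes as a topic were chosen with earlier results of these data known. Sertoli cells line the seminiferous tubule and support the germ cells. They came from 20-day-old male Sprague-Dawley rats and were kept for 72 h in serum-free medium, either untreated (control, 2 arrays) or with cAMP (cAMP, 2 arrays). Which form of cAMP was added, and how much, is not given in the sources. The labels call the arrays of a group biological replicates without saying whether they came from separate preparations of cells. The p-values therefore rest on a spread between arrays that may be partly technical. Values are probe set signals on a linear scale, and the number of arrays limits the precision.

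A Rab protein carries a membrane address. In its GTP-bound form it sits on a particular organelle and recruits effectors that move, tether or fuse vesicles, guanine nucleotide exchange factors (GEFs) switch it on, GTPase-activating proteins (GAPs) switch it off, and GDP dissociation inhibitor (GDI) lifts it back into the cytosol. Sertoli cells depend on this traffic to secrete tubular fluid and proteins, to engulf residual bodies of the germ cells, and to recycle the junction proteins of the blood-testis barrier. cAMP is the second messenger of follicle-stimulating hormone in these cells, and the comparison asks which transcripts differ after culture with it.

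The Rab genes that passed the test were Rab11a, Rab18, Rab2a and Rab6a, which were higher with cAMP, and Rab20 and Rab7b, which were lower. Below are the 250 bases before the start of those that had an entry in the RefSeq promoter table of assembly GRCr8, 45 of the 56 Rab genes having one, since cAMP signals reach promoters through the factor CREB. Each is written 5' to 3' along the gene, with the core of the cAMP response element, TGACG on either strand, in capitals.
Rab11a, chr8:74141685-74141934, minus strand: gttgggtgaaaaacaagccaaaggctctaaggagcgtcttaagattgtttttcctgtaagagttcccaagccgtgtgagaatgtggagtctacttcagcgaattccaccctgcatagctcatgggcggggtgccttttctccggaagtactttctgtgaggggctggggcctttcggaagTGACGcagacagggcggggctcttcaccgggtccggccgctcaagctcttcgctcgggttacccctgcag
Rab18, chr17:59639014-59639263, plus strand: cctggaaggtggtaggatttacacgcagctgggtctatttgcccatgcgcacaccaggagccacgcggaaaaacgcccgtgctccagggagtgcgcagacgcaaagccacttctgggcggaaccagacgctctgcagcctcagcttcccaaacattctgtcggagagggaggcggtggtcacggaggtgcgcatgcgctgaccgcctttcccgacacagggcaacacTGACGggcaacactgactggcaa
Rab6a, chr1:164369783-164370032, plus strand: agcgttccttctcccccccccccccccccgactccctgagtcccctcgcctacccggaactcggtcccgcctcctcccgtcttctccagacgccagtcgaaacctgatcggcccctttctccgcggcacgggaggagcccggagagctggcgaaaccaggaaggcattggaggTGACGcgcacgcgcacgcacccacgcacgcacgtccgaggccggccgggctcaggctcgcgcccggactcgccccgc
Rab20, chr16:84721177-84721426, plus strand: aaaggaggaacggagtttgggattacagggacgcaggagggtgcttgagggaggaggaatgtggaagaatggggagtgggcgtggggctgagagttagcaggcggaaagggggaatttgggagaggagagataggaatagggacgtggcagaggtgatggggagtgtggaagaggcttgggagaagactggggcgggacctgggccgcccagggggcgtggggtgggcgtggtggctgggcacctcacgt
Rab7b, chr13:45673195-45673444, plus strand: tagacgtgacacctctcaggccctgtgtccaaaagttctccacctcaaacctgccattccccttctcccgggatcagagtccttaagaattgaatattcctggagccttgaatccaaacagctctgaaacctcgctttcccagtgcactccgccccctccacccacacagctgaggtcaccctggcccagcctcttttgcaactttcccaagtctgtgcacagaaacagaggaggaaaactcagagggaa

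The core stood in the printed stretch of Rab11a, Rab18 and Rab6a, with its first base 70, 23 and 77 bases before the start, and not in that of Rab20 or Rab7b. Among all Rab genes with an entry it was found in 16 of 45 (35.6%), against 20% of 27457 genes of the table. It was also found in 10 of the 29 Rab genes that were tested and did not pass. Transcripts of Rab11a and Rab7b other than those of the table begin inside the printed stretch. The full element, TGACGTCA, was found in Rab25 and in no other Rab gene of the table, against 1.78% of all genes in it, and Rab25 was too dim to test. A match describes letters in this stretch and is not a measured binding site.

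Of the 56 Rab genes, 41 were bright enough to be tested, and 4 of these were higher with cAMP, 2 were lower and 35 did not pass. Differences were tested with limma on log2(signal + 16) over all 18625 probe sets at or above the 40th percentile of brightness. For p-values and standard errors, limma draws the spread of each gene towards a trend over all these probe sets. They therefore do not measure the spread of that gene's own arrays alone. A gene passed at a Benjamini-Hochberg adjusted p below 0.05. By that rule 15.4% of the 10035 genes tested passed, 8.27% higher and 7.14% lower, beside 14.6% of the Rab genes, so the share of Rab genes that passed was near the background. The median log2 difference, cAMP minus control, was 0.14 over the tested Rab genes and -0.03 over all tested genes. In 27 of the 41 the cAMP arrays did not overlap the control arrays, 19 of them higher and 8 lower with cAMP, while 61.3% of all tested genes did not overlap. On the log2 scale 31 of the 41 lay within 0.5 of 0 (75.6%, against 75.2% of all tested genes), and 3 (Rab20, Rab7b and Rab6b) reached 1 in either direction (7.32%, against 8.08%). Of the 41, Rab6b alone had a group mean, that of the cAMP arrays, below the filter.

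**Figure D1:**
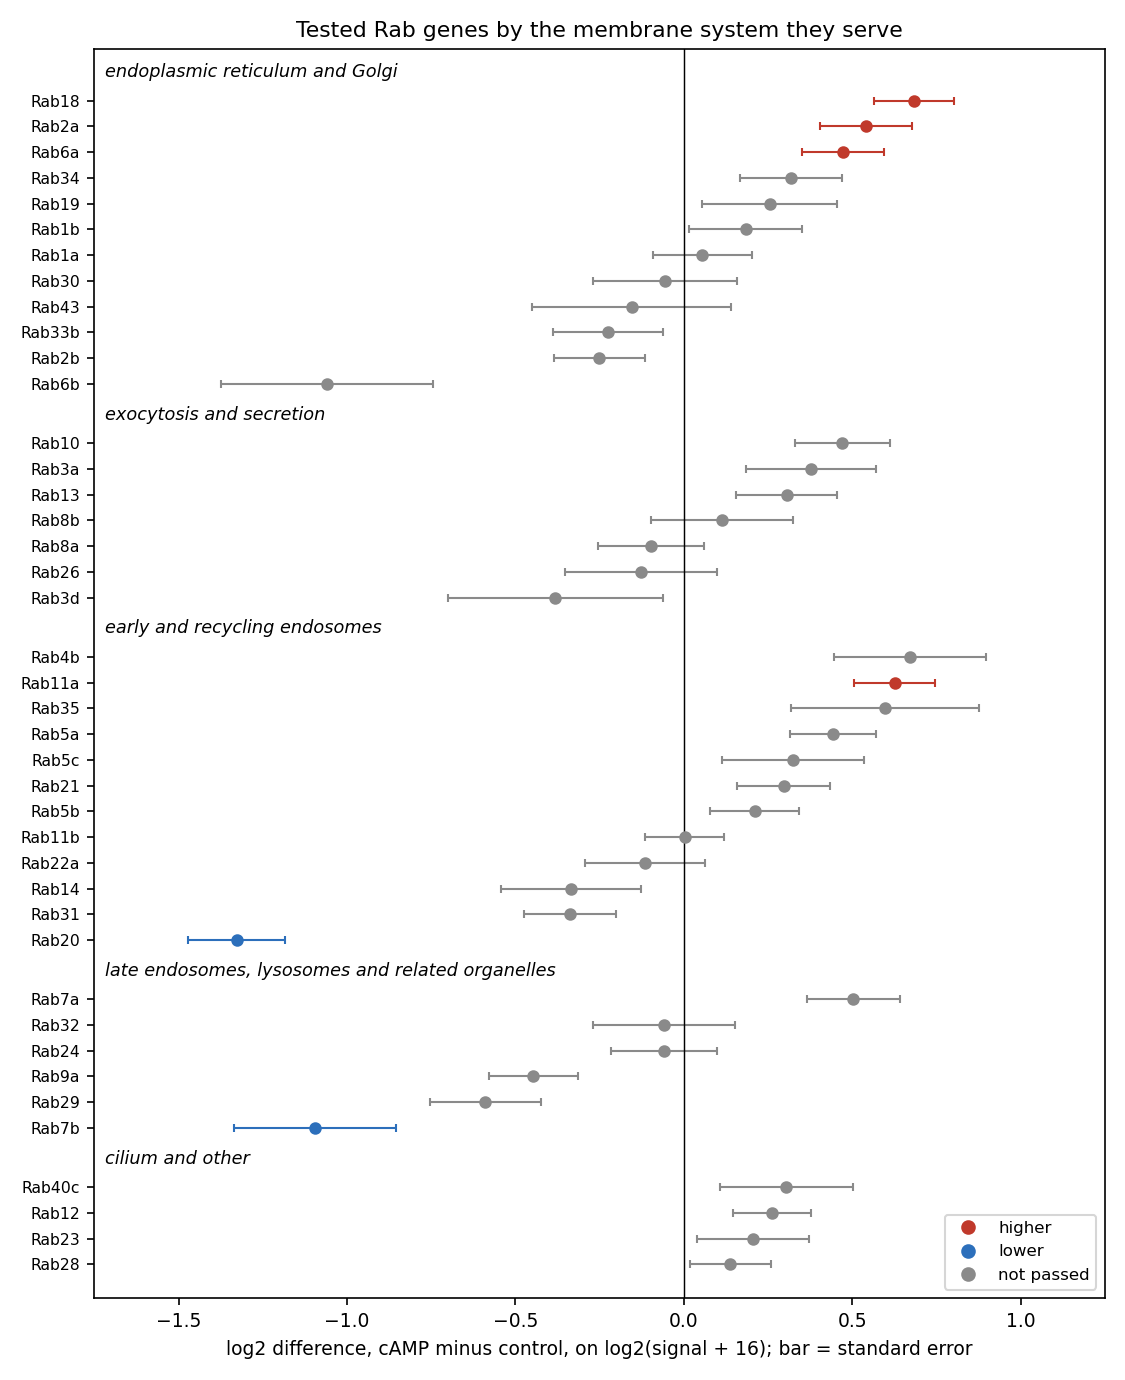
Log2 difference (cAMP minus control, horizontal axis, on the log2(signal + 16) scale) of the 41 tested Rab genes, grouped by the membrane system they serve, with bars for the standard error (2 arrays per group). Red marks the 4 genes higher with cAMP, blue the 2 lower and grey the 35 that did not pass; Rab20 (-1.33) and Rab7b (-1.10) lie furthest to the left among the coloured points and Rab18 (0.68) furthest to the right.

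Among Rabs of the endoplasmic reticulum and Golgi, 12 of 15 genes were tested, 3 were higher and 0 were lower by limma (1, Rab6b, at an unadjusted p below 0.05). Over all tested genes 8.27% were higher and 7.14% lower, and whether this group differs from them was not tested. Rab18, which acts at the endoplasmic reticulum and on lipid droplets, had signals of 1013.4 and 979.7 in control cells and 1662.2 and 1560.2 with cAMP. All its cAMP values lay above all its control values, and the log2 difference was 0.68 ± 0.12 (standard error; adjusted p by limma = 0.00984). Rab2a, which works in transport between the endoplasmic reticulum and the Golgi, measured 1002.4 and 831.5 in controls and 1336.4 and 1333.6 with cAMP (0.54 ± 0.14, adjusted p by limma = 0.0416). The cAMP pair of Rab2a was closer together than the control pair, and the groups did not overlap. A second Rab2a probe set gave 0.19 ± 0.13 and did not pass. Rab6a, the Rab of traffic back through the Golgi, measured 841.9 and 797.5 in controls and 1112.4 and 1174.8 with cAMP (0.47 ± 0.12, adjusted p by limma = 0.0457). Its groups did not overlap either, but its other, dimmer probe set gave 0.29 ± 0.19 and did not pass. Rab1a and Rab1b, which serve the step from the endoplasmic reticulum to the Golgi, differed by 0.06 ± 0.15 and 0.18 ± 0.17 and did not pass. The remaining tested genes of this group, which were Rab2b, Rab6b, Rab19, Rab30, Rab33b, Rab34 and Rab43, lay between -1.06 for Rab6b and 0.32 for Rab34.

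Among Rabs of early and recycling endosomes, 12 of 16 genes were tested, with 1 higher and 1 lower (16.7%, against 15.4% of all tested genes). Rab11a, which marks the recycling endosome, measured 1271.1 and 1425 in controls and 2078.9 and 2091.7 with cAMP. The groups were well apart, with a log2 difference of 0.63 ± 0.12 (adjusted p by limma = 0.0147), and the other probe set of Rab11a also passed, at 0.81 ± 0.14. Rab20, an endosomal Rab with a part in the maturation of phagosomes, measured 2001.5 and 1789 in controls and 675.2 and 820 with cAMP. Every cAMP value lay below every control value, and the log2 difference of -1.33 ± 0.14 (adjusted p by limma = 0.00134) was the furthest from 0 of the tested Rab genes. A second Rab20 probe set fell as well (-1.21 ± 0.15), while the third, which was dim, gave -0.60 ± 0.26 and did not pass. The Rab5 genes of the early endosome did not pass on the probe sets used, with 0.44 ± 0.13 for Rab5a, 0.21 ± 0.13 for Rab5b and 0.32 ± 0.21 for Rab5c. Rab5a lay just outside (adjusted p by limma = 0.0648), at 497 and 494.4 in controls and 680 and 678.9 with cAMP. The other Rab5a probe set gave 0.59 ± 0.22 and did not pass. For Rab4b, a Rab of rapid recycling, the log2 difference of 0.67 ± 0.23 was close to that of Rab18, but its control arrays were apart, at 200.7 and 126.4, and it did not pass (adjusted p by limma = 0.0991). Rab35 was similar, with controls at 256.7 and 133.9 and a difference of 0.60 ± 0.28. Rab14, of the route between Golgi and endosomes, was inconsistent between probe sets: -0.33 ± 0.21 on the brightest and 0.70 and 0.60 on a pair of dimmer ones, none past the threshold.

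Among Rabs of late endosomes, lysosomes and related organelles, 6 of 8 were tested, with 1 lower and 0 higher by limma (1, Rab7a, at an unadjusted p below 0.05). The share that passed was 16.7%, against 15.4% of all tested genes. Rab7b, which acts between late endosomes and the trans-Golgi network, measured 189.7 and 120.4 in controls and 56 and 69.3 with cAMP. The control arrays differed widely, yet both stood above the cAMP arrays, and the log2 difference was -1.10 ± 0.24 (adjusted p by limma = 0.025). Its dimmer probe set gave -0.56 ± 0.29 and did not pass. Rab7a, the general Rab of late endosomes and lysosomes, measured 1170 and 954.8 in controls and 1492.6 and 1517.5 with cAMP, and with 0.50 ± 0.14 it lay just outside the threshold (adjusted p by limma = 0.0543). Rab29 (-0.59 ± 0.17, adjusted p by limma = 0.0578) and Rab9a (-0.45 ± 0.13, adjusted p by limma = 0.0686), which serve the trans-Golgi network and the return of receptors from late endosomes, were also just outside, with negative differences and no overlap between the groups. Rab32 and Rab38 build melanosomes in pigment cells. Rab32 measured 75.7 and 72.9 in controls and 59 and 84.3 with cAMP, with overlapping groups, and Rab38 reached 16.2 at most. The melanin enzyme gene Dct, in contrast, measured 13.8 and 19.3 in controls and 2003.5 and 1595 with cAMP.

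Among Rabs of exocytosis and secretion, 7 of 12 were tested, and 0 passed by limma, against 15.4% of all genes (1, Rab10, at an unadjusted p below 0.05). Their differences ran from -0.38 ± 0.32 for Rab3d to 0.47 ± 0.14 for Rab10, which carries vesicles to the basolateral membrane and lay outside the threshold (adjusted p by limma = 0.0702, groups not overlapping). Rab8a (-0.10 ± 0.16) and Rab8b (0.11 ± 0.21), which direct vesicles to the plasma membrane, had overlapping groups, and Rab13, known at tight junctions, gave 0.31 ± 0.15. Of the other 5, below the filter, Rab27a, Rab37 and Rab3c lay at or below background on all 4 arrays. Rab3a, Rab3d and Rab26 stood above background on all 4 and were tested. Rab3a measured 50.7 and 60.4 in controls and 73.2 and 80.5 with cAMP (0.38 ± 0.19). Rab26 measured 21.1 and 30.1 in controls and 24.8 and 19.2 with cAMP. Background was taken as 14.2, the highest signal of the 27 bacterial control probe sets. Rab27b stayed between 12.8 and 20, and Rab3b was at 22.2 on control replicate 2 and at most 7.3 on the other arrays. The 4 tested genes outside these routes, Rab12, Rab23, Rab28 and Rab40c, had differences of 0.14 to 0.30, and 0 passed by limma, also without adjustment.

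The 15 Rab genes below the filter comprised 5 of exocytosis, 4 of early and recycling endosomes (Rab4a, Rab15, Rab17 and Rab25), 3 of the Golgi group (Rab33a, Rab36 and Rab39a), 2 of the late route (Rab9b and Rab38) and Rab40b. Of the 15, 6 lay at or below background on every array, and these were Rab3c, Rab9b, Rab17, Rab27a, Rab37 and Rab39a. No fold is given for any of them.

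Paralogs that share a number were set side by side. Rab11b measured 1128.7 and 1149.3 in controls and 1121.4 and 1160.5 with cAMP, a log2 difference of 0.00 ± 0.12, beside 0.63 for Rab11a. A second, dimmer Rab11b probe set gave -0.17 ± 0.13, with groups that did not overlap, and did not pass. Rab2b measured 725 and 828.9 in controls and 661.8 and 636.7 with cAMP (-0.25 ± 0.13), beside 0.54 for Rab2a. Rab6b, known as the neuronal form, measured 23.7 and 58.6 in controls and lay at background with cAMP, at 9.1 and 11.2. By geometric means of the groups this is at least 2.62-fold lower, though the controls were far apart. A second Rab6b probe set, below the filter, measured 20.8 and 15.6 in controls and 3.5 and 14.1 with cAMP. The Rab6b log2 difference of -1.06 on the brighter probe set did not pass (adjusted p by limma = 0.0699), beside 0.47 for Rab6a. With Rab7a and Rab7b these were the pairs in which a member had passed, and they are described for that reason. The change of the first minus that of the second was 0.62 ± 0.07 for Rab11, 0.79 ± 0.23 for Rab2 and 1.60 ± 0.19 for Rab7. These standard errors came from the within-array differences of the pair alone, not from limma. The exact two-sided permutation test over the 4 arrays cannot give a p below 0.333, so it cannot tell whether paralogs differ.

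**Figure D2:**
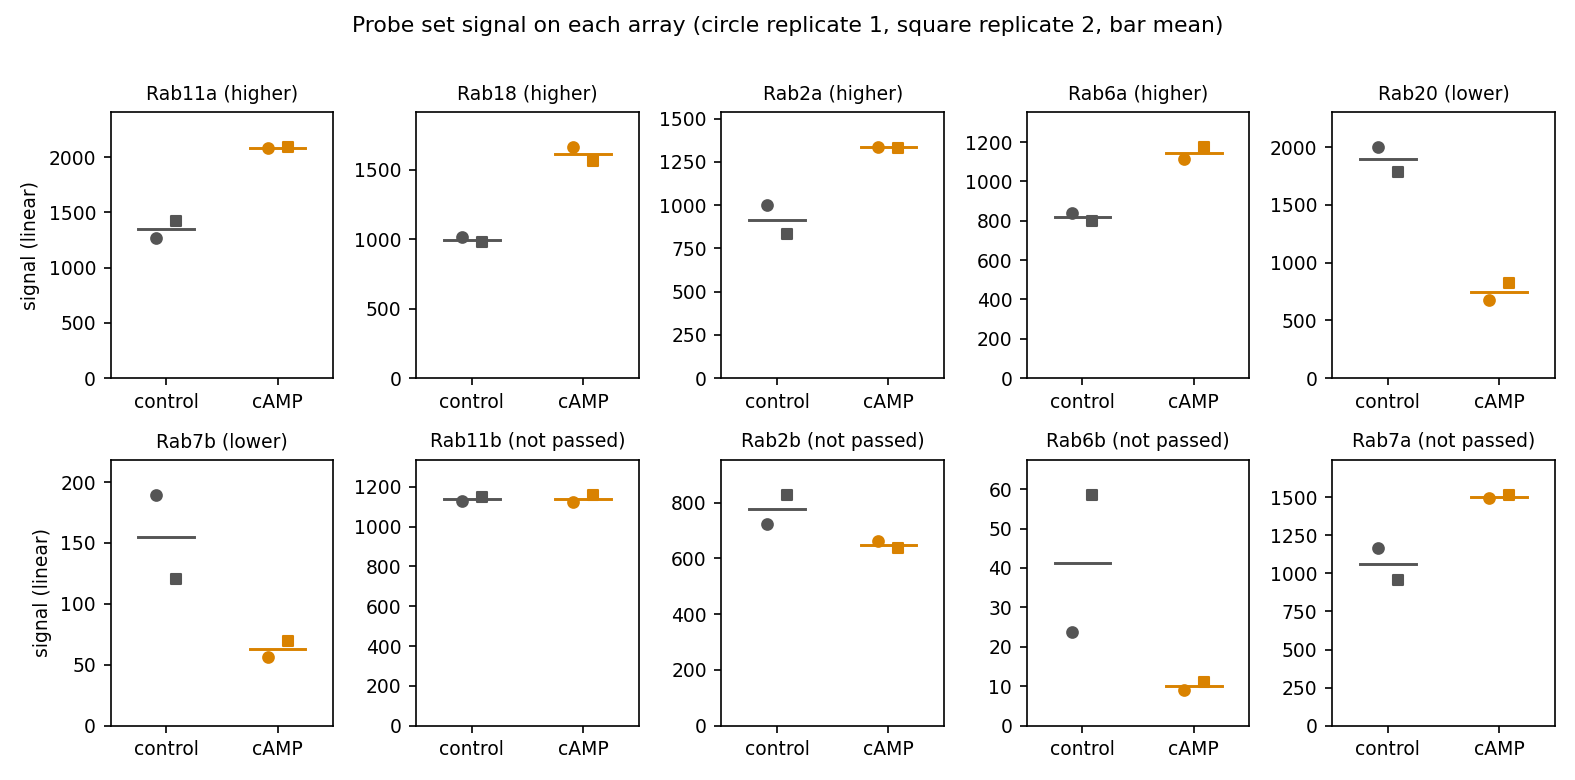
Signal on each array (linear scale from 0, vertical axis) of the 6 Rab genes that passed and of the 4 paralogs with the same number, in control and cAMP cells; circles are replicate 1, squares replicate 2 and bars the mean of 2 arrays. On the probe sets drawn, Rab11b is level across the arrays while Rab11a is higher on both cAMP arrays, and Rab7a and Rab7b stand on opposite sides of their controls.

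Regulators and effectors of the Rabs came from lists of 144 genes, of which 104 were tested. With cAMP 8 of them were higher and 7 lower, and 89 missed the threshold, so 14.4% passed beside 15.4% of all genes, with a median log2 difference of 0.01. The 8 include Tbc1d2, which was dim in controls and entered the test only through its cAMP arrays. The tested differences furthest from 0 in either direction were larger here than among the Rabs. Rin2, a GEF of Rab5, measured 1401.1 and 1320.4 in controls and 146.2 and 202.2 with cAMP, with the groups far apart (-2.87 ± 0.17, adjusted p by limma = 0.000133). Myrip, which joins Rab27 on secretory granules and melanosomes to myosin and also binds protein kinase A, measured 148.8 and 180.2 in controls and 1033.9 and 761.4 with cAMP (2.33 ± 0.19, adjusted p by limma = 0.000425). Both held with any 1 array left out.

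Of 31 tested GEFs, 2 were higher and 2 lower (12.9%, against 15.4% of all genes). Madd, the GEF of Rab3 and Rab27, rose from 42.8 and 61.7 to 144.5 and 129.3 (1.18 ± 0.21), and Hps1, part of the GEF of Rab32 and Rab38, rose from 152.8 and 123 to 242.1 and 255.8 (0.79 ± 0.17). Dennd2b, a GEF of Rab13, fell beside Rin2 (-0.97 ± 0.19). Of 26 tested genes listed as GAPs, 3 were higher and 1 lower (15.4%, the share found over all genes). Higher were Tbc1d15 (0.59 ± 0.14) and Tbc1d2 (0.82 ± 0.21), both GAPs of Rab7, and Tbc1d8 (0.70 ± 0.17). Tbc1d23, a TBC protein of the trans-Golgi that was listed with the GAPs, fell from 348.7 and 599.6 to 168.9 and 259.5 (-1.07 ± 0.29). These 4 had adjusted p by limma between 0.0297 and 0.0494. Tbc1d2 measured 15.1 and 16.6 in controls and 35.1 and 45.9 with cAMP. It thus entered the test only through its cAMP arrays, and nothing is read from its call. The count and share of GAPs above still include Tbc1d2. With the mean of all its probe sets Tbc1d8 gave 0.14 (adjusted p by limma = 0.708), and Tbc1d23 was lost in 8 of the 13 settings tried. The prenylation and GDI list had 0 of 7 tested members past the threshold by limma, also without adjustment, with Gdi2, which extracts Rabs from membranes, at 0.28 and the prenyl transferase subunits Rabggta and Rabggtb at 0.38 and -0.30.

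Of 40 tested effectors, 3 were higher and 4 lower (17.5%, against 15.4% of all genes). Beside Myrip the higher ones were Gcc2, a golgin of the trans-Golgi that binds Rab6 and Rab9, from 141.5 and 170.9 to 484.2 and 403.8 (1.42 ± 0.17), and the exocyst subunit Exoc6, which binds Rab11, from 47.8 and 55 to 146.8 and 170.3 (1.37 ± 0.19). The lower ones were Rab11fip5 (-1.34 ± 0.20) and Rab11fip1 (-0.79 ± 0.17), which couple Rab11 to its carriers, Bicd2, the dynein adaptor of Rab6 (-1.03 ± 0.16), and Rph3al, a Rab3 and Rab27 effector of granule secretion (-1.03 ± 0.21). Rab11fip5 measured 303.7 and 272.7 in controls and 124.3 and 87.1 with cAMP. Rab11fip1 gave -0.40 with the mean of all its probe sets and did not pass (adjusted p by limma = 0.104). Effectors named for the same Rab thus stood on both sides of 0: Rab11 had Exoc6 higher and Rab11fip5 lower, and Rab6 had Gcc2 higher and Bicd2 lower. Whether such effectors differ from each other was not tested.

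**Figure D3:**
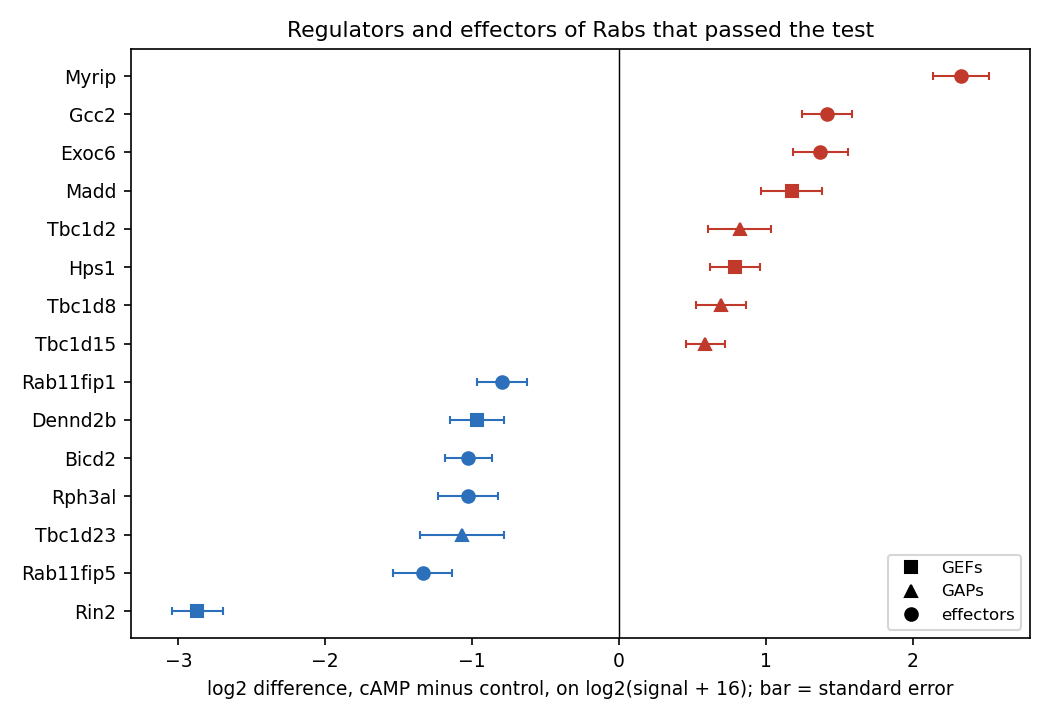
Log2 difference (cAMP minus control, on the log2(signal + 16) scale) of the 15 Rab regulators and effectors that passed, with bars for the standard error (2 arrays per group). Squares are GEFs, triangles genes listed as GAPs and circles effectors, red higher and blue lower with cAMP. Tbc1d2 entered the test only through its cAMP arrays. Rin2 at -2.87 and Myrip at 2.33 lie at the ends.

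The calls on the Rabs moved with the arrays in the fit. Without cAMP replicate 1 and then without cAMP replicate 2, where the lone cAMP array was assumed to vary like the controls, Rab20 was the only Rab gene to pass by limma, with adjusted p of 0.028 and 0.0125, while 4.65% and 4.96% of all genes passed. In the same order the adjusted p by limma was 0.184 and 0.178 for Rab11a, 0.175 and 0.114 for Rab18, 0.295 and 0.283 for Rab2a, 0.29 and 0.363 for Rab6a, and 0.205 and 0.113 for Rab7b, with the direction of each kept. The median log2 difference of the tested Rab genes in these fits was 0.17 and 0.18, against -0.04 and -0.01 over all genes. Without control replicate 1 there were 10 Rab genes higher and 6 lower, against 14.4% and 11.8% of all genes, with Rab7a, Rab5a, Rab10, Rab4b, Rab35 and Rab5c added to the higher ones and Rab6b, Rab29, Rab9a and Rab14 to the lower ones. Without control replicate 2 there were 4 higher and 3 lower, against 8.45% and 7.62%, Rab3d being the addition. Rab2a and Rab6a also missed the threshold without the filter on dim probe sets, without the intensity trend and with the mean of all probe sets of a gene, Rab7b in the first and last of these, and Rab11a without the intensity trend (adjusted p by limma = 0.0603). The median SD of a tested Rab gene on the log2 scale was 0.14 between the controls and 0.08 between the cAMP arrays, beside 0.15 and 0.10 for all genes. Of the regulators and effectors, Rin2, Myrip and Gcc2 passed with any 1 array left out, Exoc6 and Rab11fip5 did so except without cAMP replicate 2 (adjusted p by limma = 0.0667 and 0.0619), and the other 10 were lost without either cAMP array, which left 3 higher and 2 lower without replicate 1 and 2 and 1 without replicate 2. Tbc1d2 was lost in addition without either control array (adjusted p by limma = 0.0587 and 0.0691) and Tbc1d23 without control replicate 2 (adjusted p by limma = 0.0993). Without the filter the adjusted p by limma was 0.051 for Hps1, 0.0558 for Rph3al, 0.0616 for Tbc1d15, 0.0642 for Rab11fip1, 0.0681 for Tbc1d8, 0.12 for Tbc1d2 and 0.121 for Tbc1d23. Without the intensity trend it was 0.051 for Tbc1d8, 0.0581 for Rab11fip1, 0.0776 for Tbc1d15 and 0.0802 for Tbc1d23. Tbc1d23 also missed the threshold with a pseudocount of 1 (0.0546 by limma), with quantile normalization (0.0549) and with the mean of its probe sets (0.0965).

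**Figure D4:**
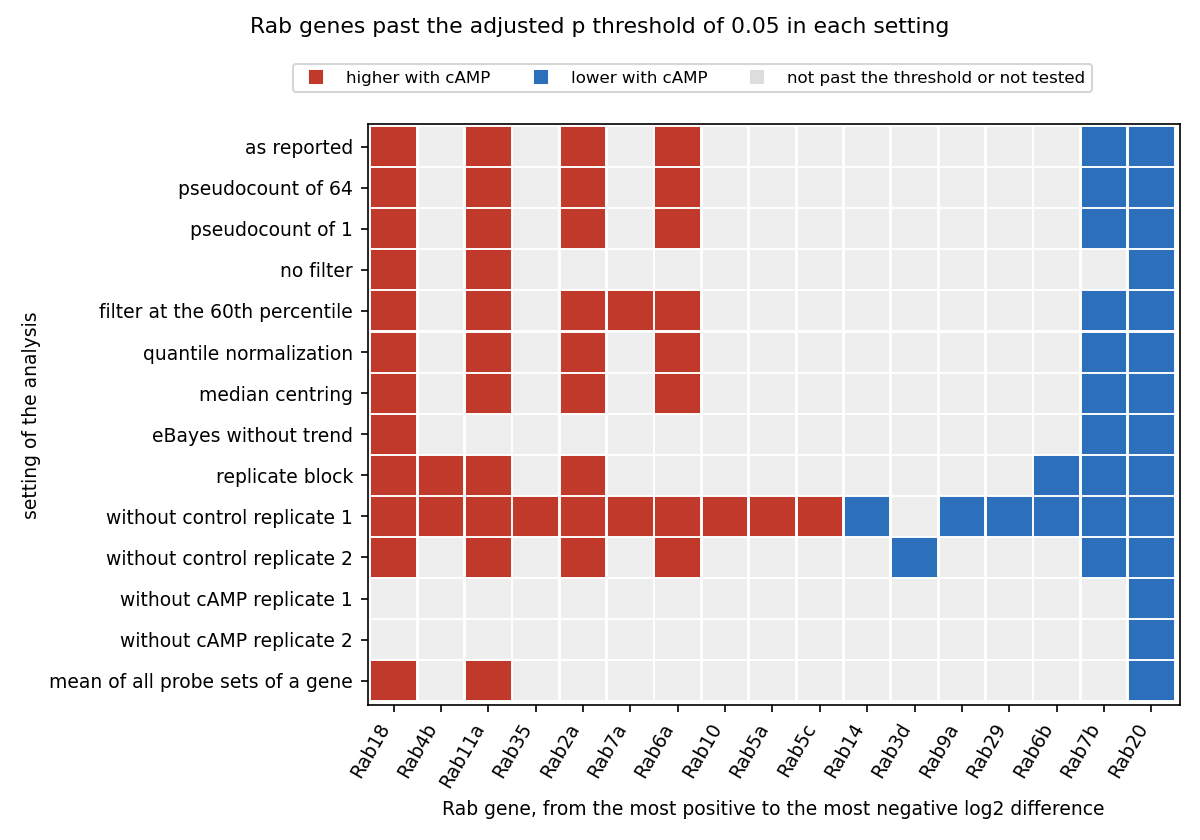
Rab genes (horizontal axis, from the most positive to the most negative log2 difference) past the adjusted p threshold of 0.05 in each setting of the analysis (vertical axis); red is higher with cAMP, blue lower and pale not past the threshold or not tested. The column of Rab20 is filled in every setting drawn, and the settings without a cAMP array hold no other gene.

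Of 9 Sertoli cell markers on the array 8 were bright enough to be tested, and Rhox5 was not (5.7 and 16.7 in controls, 21 and 14 with cAMP). Inha, the inhibin alpha subunit (2.04), and Dhh (0.74) were higher with cAMP, the transcription factor Gata4 was lower (-0.94), and Amh, Cldn11, Clu, Dmrt1 and Wt1 did not pass. The summed signal of the 9 was 16352 to 17450.2 in controls and 18267.3 to 19577.1 with cAMP, and without Inha 15400.4 to 16207.4 against 13922.7 to 14844.5. In this and the next sums the marker that differed most in signal was left out after the values had been seen. Of the peritubular myoid markers Tagln fell, from 344.5 and 264.3 to 1.3 and 7.4, Des rose from 19.7 and 19.5 to 58.1 and 68.3, Acta2 (-0.19) and Myh11 (-0.35) did not pass, and Cnn1 and Actg2 were below the filter. The sum of these 6 was 428.3 to 549.9 in controls and 172.9 to 204.7 with cAMP, and without Tagln 164 to 205.4 against 171.6 to 197.3. Of the endothelial markers Kdr fell (-1.23), Tek did not pass, and Pecam1 and Vwf lay at background. Their sum was 155.6 to 229.5 in controls and 88.3 to 91.2 with cAMP, and without Kdr 24.8 to 42.2 against 30.2 to 33.7. Germ cell markers were present in both groups (6 markers, summed 2999.6 to 3162.9 in controls and 2322.4 to 3076.3 with cAMP, mostly Sycp3, with Prm1 and Tnp1 at background). The 6 pigment cell markers summed to 73.5 to 74 in controls and 1663.4 to 2075.3 with cAMP, and without Dct to 54.7 to 59.7 against 68.4 to 71.8, with Tyr and Mlana at background. The 5 Leydig cell markers summed to 65.8 to 71.7 in controls and 63.8 to 73.7 with cAMP, with Cyp17a1, Hsd3b1 and Lhcgr at background. The part of these cells in the Rab differences was not tested. In a bulk culture fewer cells of a type and less RNA per cell cannot be told apart. For Rab7b, known from monocytes and macrophages, the macrophage markers Ptprc, Adgre1 and Cd163 lay at background on all 4 arrays, and the sum of the 7 macrophage markers was 66.5 to 71.7 in controls and 87.7 to 130.3 with cAMP, and without Cd68 60.3 to 67.6 against 59.6 to 85.1; their part in the Rab7b result was not tested. RNA integrity, read as the actin signal at the 3' end over that at the 5' end, gave 1.80 and 2.25 in controls against 1.86 and 1.64 with cAMP. The same ratio for Gapdh was 0.966 and 0.903 in controls against 0.93 and 0.937 with cAMP. The part of RNA integrity in the results was not tested.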

How the data were processed

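RNA of 4 cultures was hybridised to one-colour Affymetrix rat arrays. The authors deposited linear probe set intensities, for which the submitters' processing notes name GCOS and MAS5 without version or settings. All arrays had the same mean, 125, once the lowest and highest 2% of values were set aside, so they had been scaled. Genes were named from the platform annotation; of 31099 probe sets, 20832 had 1 symbol, and symbols other than the Rabs were updated through RefSeq (GRCr8). The intensities were turned into log2(signal + 16), which understates the change of dim genes, with no further normalization. Probe sets with a mean of at least 5.10 were fitted with limma 3.58.1 in R 4.3.3 (eBayes with an intensity trend, two-sided), with Benjamini-Hochberg adjustment over all of them. The fit was tested on simulated data, where false calls ran well above the rate the threshold sets. Nearly all 4-fold changes were found there, but part of the 2-fold ones were missed. A group at or below background on every array gives a bound, with its values raised to 14.2. Named were Rab genes past the threshold, their paralogs, the 5 nearest to it, those whose probe sets disagreed, and regulators past it; others were named after their values were seen. The Rab genes, lists and tests were chosen with earlier results of these data known. The closing section gives the alternatives tried.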

Additional observations from a re-analysis of the deposited data

How the results depend on the processing

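Over the pseudocount, filter, normalization, variance prior, replicate block, omission of each array and averaging of probe sets, none of the 21 named Rabs, regulators and effectors changed direction (272 values in all), and 211 of the values kept the side of the threshold. Without the filter on dim probe sets 2 Rab genes were higher and 1 lower (5.36%, against 7.1% of all genes). There 4 regulators and effectors were higher and 6 lower. Over the whole array 873 probe sets were higher and 725 lower, against 1358 and 1191 with the filter. The fit without the filter tests more probe sets. In it the median log2 difference of the Rab genes was 0.03 over 56, against -0.02 over all genes. With the filter at the 60th percentile it was 0.21 over 35, against -0.03. With the mean of all probe sets of a gene 2 Rab genes were higher and 1 lower (7.32%, against 13.7% of all genes). Without the intensity trend 1 was higher and 2 lower (7.32%, against 12.1% of all genes). The cause of these smaller counts was not tested. Leaving out 1 array gave 0 to 10 Rab genes higher and 1 to 6 lower by limma, 2 to 10 regulators and effectors higher and 1 to 8 lower, and 396 to 2467 probe sets higher and 314 to 2381 lower; the median of the Rab genes ran from 0.10 to 0.21. At an unadjusted p below 0.05, 14 of the 41 Rab genes passed by limma, 8 higher and 6 lower. Of all 10035 tested genes, 1491 were higher and 1522 lower at that threshold. With the replicate number as a block 4 Rab genes were higher and 3 lower (17.1%, against 17.3% of all genes), with Rab6a lost and Rab4b and Rab6b added. Same-numbered arrays deviated together with r = 0.163, but nothing in the labels says that a number marks a shared preparation. Signals near background limit what can be said of the 15 dim Rab genes.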

Other observations

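Rab5b was read by several probe sets that differed. The brightest gave 588.9 and 585.6 in controls and 646.4 and 719.3 with cAMP and did not pass, while a pair of dimmer ones passed by limma, 1 at 93.3 and 76.7 against 148.1 and 148.5 (0.71, adjusted p = 0.0423) and 1 at 48.3 and 33.4 against 80 and 94.1 (0.87, adjusted p = 0.04). The Rab-like GTPase genes that the naming rule leaves out did not pass: Rabl2 gave -0.20, Rabl3 -0.11, Rabl6 -0.16, and Ift22 and Ift27, which belong to the transport machinery of cilia, -0.01 and 0.03. Of 3 probe sets that carry the symbols of both Rab1a and Rab1b, 2 were tested, at 0.33 and 0.25, and did not pass.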
